A study of Mus musculus with 26 samples.

Results

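The cold response of brown adipose tissue was measured in mice whose brown adipocytes lack Klf15, a zinc finger transcription factor of the Kruppel-like family. The comparison uses 7 of the 26 libraries of the series. In 4 libraries the knockout mice (BKO) had gone through a cold challenge without fasting, and in 3 libraries they were fed and kept at room temperature. All 7 mice had the genotype Ucp1-Cre/+;K15F/F and were 2 months old. Both alleles of Klf15 are flanked by loxP sites in these mice, and Cre is driven by the promoter of Ucp1, so that the gene is cut out where Ucp1 is expressed, in brown adipocytes, and stays intact in the other cells of the tissue. Mice with the same floxed alleles and no Cre (FF, KLF15 flox/flox, also 2 months old) supplied 4 libraries in cold and 3 fed at room temperature for the test of whether the response depended on genotype. The temperature and length of the challenge and the time of collection are not given in the sources used here. The 4 cold libraries carry library numbers 15 to 19 and the 3 room temperature libraries numbers 29 to 32, so the order of the libraries and the treatment cannot be told apart.

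Brown fat turns fuel into heat. Cold makes sympathetic nerves release noradrenaline, which acts on the beta 3 adrenergic receptor Adrb3 and raises cAMP, and cAMP starts the breakdown of stored triglyceride. The fatty acids open uncoupling protein 1 (Ucp1) and are burned in the mitochondria, while glucose uptake, glycolysis and the making of new lipid also rise in activated brown fat. Klf15 is known from liver and muscle as a regulator of amino acid breakdown, lipid handling and the response to fasting and glucocorticoids.

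Values are FPKM, fragment counts scaled to transcript length and library size, so levels of different genes can be set side by side per length. Per-library values are listed below for cold replicates 1 to 4 and then for room temperature replicates 1 to 3. Differences are those of log2(FPKM + 1), cold minus room temperature, with the standard error (SE), and they understate the fold of genes at low levels. Folds are ratios of the mean FPKM of the groups. Adjusted p-values come from limma over the 11842 genes that reached 1 FPKM in 3 or more of the 7 libraries, and a gene rose or fell where its adjusted p was under 0.05. The labels give each library its own animal number, and p-values measure the spread between these libraries.

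The libraries were alike in their totals, which ran from 416377 to 454777 FPKM, and 11496 to 11840 genes per library reached 1 FPKM. Read depth is unknown, because the files give no counts. On log2(FPKM + 1), libraries correlated at 0.9852 to 0.9901 within cold, at 0.9809 to 0.9859 within room temperature and at 0.9674 to 0.9793 between the groups. A principal component analysis put 45.1% of the variance on its leading axis, along which all cold libraries (scores of -19.45 to -11.79) lay apart from all room temperature libraries (18.98 to 23.53). The next axis held 17.4% and set cold replicate 3 (-18) and room temperature replicate 3 (-16.27) apart from the other 5 libraries. Cidea, a lipid droplet protein abundant in brown fat, lay between 1743 and 1999 FPKM in the 7 libraries, and summed brown adipocyte markers are given below. White adipocyte markers, 10 genes, summed to 27.2 to 59.8 FPKM in cold and 51.1 to 89.9 FPKM at room temperature; of these, Hoxc9, Hoxc10 and Tcf21 were listed at 0 in all 7 libraries, and of the 5 tested none passed. Summed skeletal muscle markers, which can come from adjoining tissue, ranged from 24 to 246 FPKM in cold and from 53.9 to 158 FPKM at room temperature, and of the 11 such genes tested none passed (0 higher and 0 lower).

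Klf15 itself (ENSMUSG00000030087.11, chromosome 6, 90462576 to 90475238, GRCm38) stood at 2.12, 2.54, 2.84 and 2.18 FPKM in cold and at 3.15, 3.67 and 5.13 FPKM at room temperature in BKO mice. The groups did not overlap, and the difference was -0.53 (SE 0.14, adjusted p = 0.0387). That call ended without cold replicate 1, 2 or 4 or without room temperature replicate 2 or 3, with differences from -0.65 to -0.37 and adjusted p-values of up to 0.101 over the leave-outs. In FF mice the means were 14.1 ± 3.45 FPKM in cold (SD, n = 4) and 28 ± 3.87 FPKM at room temperature (SD, n = 3), so all 7 BKO libraries lay under both FF means. The source of the remaining transcript was not tested.

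Of the 11842 genes, 1581 differed between cold and room temperature in BKO mice, which is 13.4% of those tested. Cold raised 984 genes (8.31%) and lowered 597 (5.04%), and the median difference over all genes was 0.01. The counts given below for gene lists are to be read beside these shares of all genes. Among the called genes, 117 rose and 62 fell by more than 1 on the log2 scale. Calls of 693 genes, 446 higher and 247 lower, held without each of the 7 libraries in turn, and the genes described below as having risen or fallen are among these unless said otherwise. The total of called genes was 842 without cold replicate 1, 1015 without cold replicate 4 and 902 without room temperature replicate 2, and 1454 without replicate 3 of both groups. In bulk tissue, fewer cells of a type and less RNA per cell cannot be told apart.

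**Figure D1:**
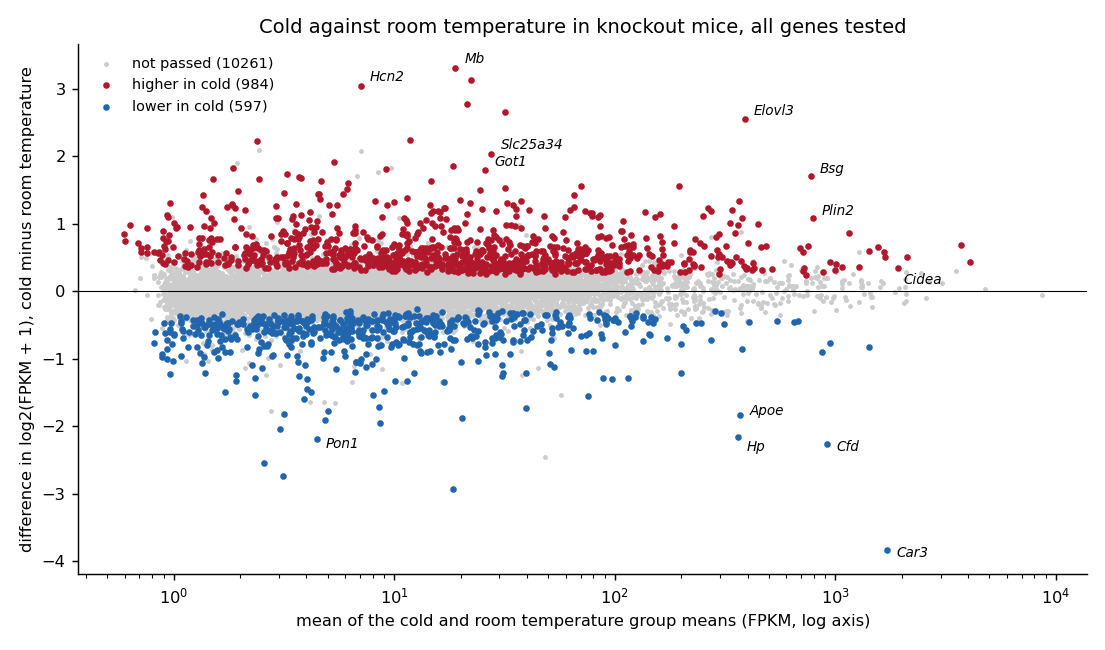
Difference in log2(FPKM + 1) between cold and fed room temperature in BKO mice (vertical axis) against the mean FPKM of the 2 groups (horizontal log axis) for the 11842 genes tested. Red points mark the 984 genes that rose and blue points the 597 that fell; Mb and Hcn2 lie at the top and Car3 at the bottom.

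Upstream sequences of 4 genes are shown because each holds the letters of a motif tied to cold signalling in brown fat, although the genes differ in their response. Hcn2, Maff and Ldha rose in cold and Dio2 did not pass the test. Each line gives the 250 bases before a start of the gene in RefSeq (GRCm38.p6), 5′ to 3′ on the gene's strand, with the matched letters in capitals. They are the cAMP response element TGACGTCA in Maff, Ldha and Dio2 and the estrogen-related receptor element TCAAGGTCA, on the opposite strand, in Hcn2. The coordinates are chr10:79716384-79716633 (plus strand) for Hcn2, chr15:79347270-79347519 (plus) for Maff, chr7:46845554-46845803 (plus) for Ldha and chr12:90739039-90739288 (minus) for Dio2. Where a gene has several starts, the first window that held the motif is printed, so the start was picked for the match. The Maff window lies inside the annotated gene, which begins at 79346621 on chromosome 15.
Hcn2: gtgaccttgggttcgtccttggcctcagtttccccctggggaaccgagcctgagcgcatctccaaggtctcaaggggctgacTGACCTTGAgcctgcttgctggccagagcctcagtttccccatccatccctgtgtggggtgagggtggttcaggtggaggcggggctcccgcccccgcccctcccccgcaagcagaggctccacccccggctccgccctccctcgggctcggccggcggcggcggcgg
Maff: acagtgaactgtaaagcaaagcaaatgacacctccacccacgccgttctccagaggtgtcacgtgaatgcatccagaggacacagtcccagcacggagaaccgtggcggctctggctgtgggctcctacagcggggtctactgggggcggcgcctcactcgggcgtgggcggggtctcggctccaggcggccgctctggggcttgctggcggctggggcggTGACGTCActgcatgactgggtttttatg
Ldha: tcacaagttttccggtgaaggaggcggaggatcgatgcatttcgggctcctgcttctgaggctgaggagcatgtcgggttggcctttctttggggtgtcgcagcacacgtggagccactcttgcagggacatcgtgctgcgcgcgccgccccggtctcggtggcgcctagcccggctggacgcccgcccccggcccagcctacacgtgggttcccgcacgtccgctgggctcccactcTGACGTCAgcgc
Dio2: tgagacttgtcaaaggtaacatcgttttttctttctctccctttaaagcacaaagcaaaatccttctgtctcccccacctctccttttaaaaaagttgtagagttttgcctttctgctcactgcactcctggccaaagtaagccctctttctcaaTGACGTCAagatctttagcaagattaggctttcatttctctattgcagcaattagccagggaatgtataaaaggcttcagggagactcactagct
Searched on both strands in windows of 300 bases, 250 before and 50 after the start, TGACGTCA was found in 1.79% and TCAAGGTCA in 0.423% of 32851 promoter windows of the mouse genome. The match is a description of letters and not of a bound site.

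Ucp1 could not be compared. It stood at 3908 to 4768 FPKM in the 3 libraries at room temperature and was listed at 0 in all 4 cold libraries of BKO mice and all 4 of FF mice, while BKO mice that were both cold and fasted had 7785 to 8001 FPKM. A gene of this abundance listed at 0 in every library of a group is treated as a failed estimate, so nothing is said of Ucp1 in the cold challenge. Gpd1, which makes the glycerol backbone of triglyceride, was likewise listed at 0 in all cold libraries and at 3442 to 3769 FPKM at room temperature. Fasn, the fatty acid synthase, and Scd1, the desaturase for newly made fatty acids, were at 0 in all 7 libraries. The neighbours of Ucp1 on chromosome 8 were estimated. Elmod2 lay at 15.5, 17.3, 10.6 and 16.3 FPKM in cold and 27.4, 24.6 and 16.7 at room temperature (difference -0.58, SE 0.19, adjusted p = 0.0748), and Tbc1d9 differed by 0.24 (SE 0.13, adjusted p = 0.251).

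The 20 genes with the largest rises, taken among called genes without overlap between the groups and with at least 5 FPKM in the higher group, were led by Mb, the oxygen-binding protein myoglobin. It stood at 41.6, 26.3, 33.5 and 38.9 FPKM in cold and at 2.01, 4.98 and 1.57 FPKM at room temperature, a 12.3-fold higher mean (difference 3.31, SE 0.27, adjusted p = 0.000186). All cold libraries were high. Mb is also abundant in skeletal muscle. By library, the muscle markers given above summed to 246, 126, 50.4 and 24 FPKM in cold and to 64.1, 158 and 53.9 FPKM at room temperature. The part of muscle in the rise of Mb was not tested. Hcn2, a cation channel gated by voltage and cyclic nucleotides whose upstream sequence is printed above, was at 14.4, 10.6, 14.3 and 14.2 FPKM against 0.634, 0.952 and 0.646. This 18-fold difference (3.04, SE 0.13, adjusted p = 6.45e-06) left the groups far apart, with replicate 2 the lowest in cold. The room temperature values of Hcn2 were all under 1 FPKM, where FPKM are least precise. It was thus tested only through the cold libraries, where it was high, and its fold is imprecise. Elovl3, the elongase of very long fatty acids and a classic cold-induced gene of brown fat, was at 590, 595, 593 and 830 FPKM against 205, 127 and 49.1 (2.56, SE 0.38, adjusted p = 0.00312). Its room temperature libraries were widely spread, yet none reached the lowest cold value.

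Among the same 20 rises were carriers and enzymes of metabolism. Slc25a34, a mitochondrial carrier, was at 39.5, 43.5, 53.4 and 43.9 FPKM in cold and at 10.3, 9.91 and 10.3 at room temperature (2.04, SE 0.10, adjusted p = 1.16e-05). Got1, the cytosolic aspartate aminotransferase of the malate-aspartate shuttle, was at 37.4, 34.6, 38.8 and 53.0 against 11.4, 11.1 and 10 (1.80, SE 0.14, adjusted p = 0.000149). Ak4, a mitochondrial adenylate kinase, rose by 1.73 (SE 0.20, adjusted p = 0.000813) and Marc1, a molybdenum enzyme of the outer mitochondrial membrane, by 2.24 (SE 0.33, adjusted p = 0.00312). Bsg (basigin), the partner protein of lactate transporters, was one of the most abundant of the rising genes. It stood at 1171, 1119, 1151 and 1292 FPKM in cold and at 386, 339 and 361 at room temperature (1.71, SE 0.08, adjusted p = 9.69e-06), with narrow groups far apart.

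The other large rises covered signalling, transport and RNA genes. Egln3, an oxygen sensor that marks hypoxia-inducible factor for breakdown, rose by 1.85 (SE 0.23, adjusted p = 0.00131), and Maff, a small Maf transcription factor, by 1.81 (SE 0.32, adjusted p = 0.00669). Maff was at 24, 8.87, 8.64 and 18.6 FPKM in cold and at 3.56, 2.37 and 3.84 at room temperature, so the cold libraries fell into a higher and a lower pair. Impa2, an inositol monophosphatase, rose by 1.56 (SE 0.12), Sorl1, a sorting receptor, by 1.64 (SE 0.26), Tesc, a calcium-binding regulator of sodium-proton exchange, by 1.6 (SE 0.19), Hephl1, a copper ferroxidase, by 1.70 (SE 0.22), and Sult5a1, a sulfotransferase, by 1.68 (SE 0.22). Ttc25, known from cilia, rose by 2.66 (SE 0.28), the non-coding RNA gene 2310069B03Rik by 2.78 (SE 0.28) and 4930415O20Rik by 1.92 (SE 0.22). Gm15241 (difference 3.13, SE 0.21) lies antisense to Adgrg2, and reads of the 2 strands cannot be told apart where strand was not used in counting, so its identity is uncertain.

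**Figure D2:**
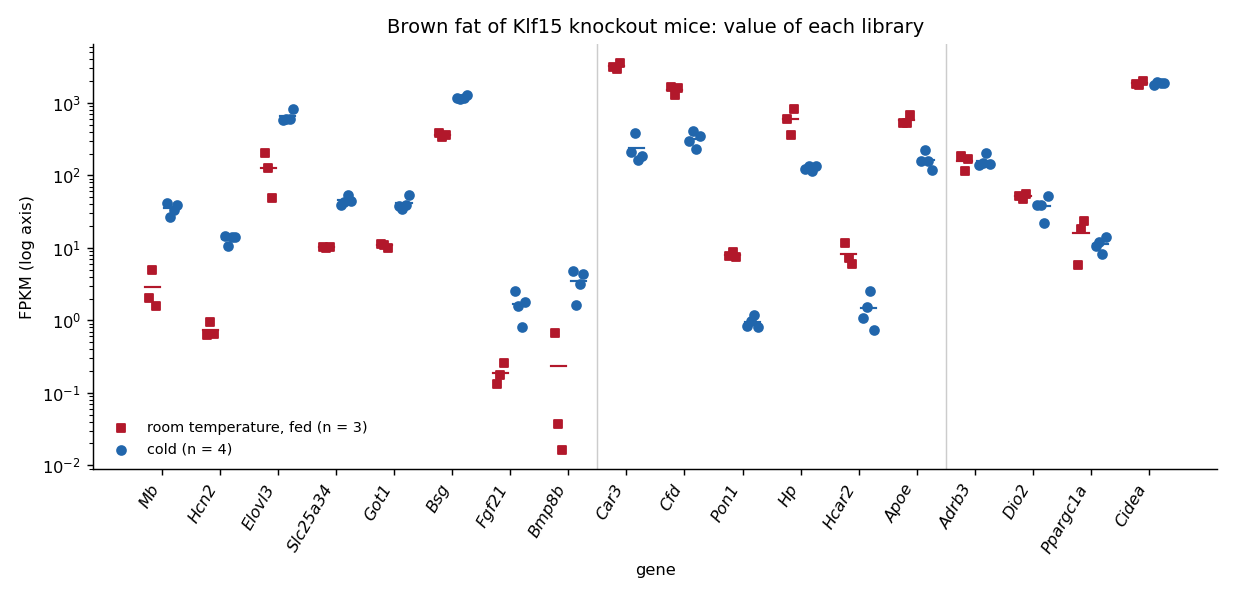
FPKM of each library (log axis) for 18 genes in BKO mice, with red squares for the 3 room temperature libraries, blue circles for the 4 cold libraries and short lines for the group means. The 8 genes on the left were higher in every cold library, the 6 in the middle lower in every cold library, and in the 4 on the right the groups overlapped.

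Of the 20 falls ranked by the same rule the largest was in Car3, carbonic anhydrase 3, an abundant enzyme of fat cells. It fell from 3163, 2928 and 3520 FPKM at room temperature to 213, 391, 163 and 184 FPKM in cold (difference -3.83, SE 0.25, adjusted p = 7.50e-05), a 13.5-fold higher mean at room temperature. Cfd, the complement protease adipsin secreted by adipocytes, fell from 1685, 1271 and 1596 FPKM to 295, 405, 231 and 347 (-2.26, SE 0.18, adjusted p = 0.000179). No cold library came near a room temperature library in either gene. Hp, the hemoglobin-binding plasma protein haptoglobin, differed by -2.16 (SE 0.22, adjusted p = 0.000509), Apoe, a lipoprotein component, by -1.82 (SE 0.18, adjusted p = 0.000509) and Pon1, a lipoprotein-bound lactonase, by -2.19 (SE 0.11, adjusted p = 9.69e-06).

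Both lipolysis-restraining receptors of the hydroxycarboxylic acid family fell. Hcar1, the lactate receptor, was at 7.88, 10.9, 7.76 and 5.57 FPKM in cold and at 44.8, 28.2 and 24.2 at room temperature (-1.87, SE 0.23, adjusted p = 0.00120). Hcar2, the receptor of beta-hydroxybutyrate and niacin, was at 1.09, 1.51, 2.52 and 0.737 against 11.5, 7.18 and 6.01 (-1.91, SE 0.25, adjusted p = 0.00168). The highest cold value was under the lowest room temperature value in both. Further large falls were seen in Igf1, insulin-like growth factor 1 (-1.47, SE 0.23), Steap4, a metalloreductase of fat cells (-1.56, SE 0.20), the matrix proteins Svep1 (-1.95, SE 0.33) and Podn (-1.49, SE 0.12), the galactosyltransferase B3galt2 (-1.78, SE 0.32), the klotho-related Lctl (-1.71, SE 0.17), Vat1l (-1.81, SE 0.19) and complement C4b (-1.59, SE 0.11), whose reads can be shared with a near-identical copy. Among the 20 largest falls were also 4 genes of short or pseudogene transcripts. The ribosomal RNA gene n-R5-8s1 and the small RNA gene Gm22442 were listed at 0 in all cold libraries and at 2.68 to 9.52 and 3.13 to 7.80 FPKM at room temperature, and no fold is given. Both were tested only through the room temperature libraries, where they were high. The processed pseudogenes Gm15079 and Gm16053 share sequence with their parent genes, and their calls ended without 3 and 5 of the 7 libraries in turn: without cold replicate 4 and room temperature replicates 2 and 3 for Gm15079 (adjusted p up to 0.0660), and without cold replicates 1, 2 and 4 and room temperature replicates 1 and 2 for Gm16053 (up to 0.0791).

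Among genes of adrenergic and cAMP signalling, the receptor that starts the response did not pass the test, while several members that shape it did. Of 35 genes listed, 33 were tested, and 4 rose (12.1%) and 6 fell (18.2%), beside 8.31% and 5.04% of all genes. The median difference was -0.03. Adrb3 was at 141, 150, 201 and 143 FPKM in cold and at 183, 116 and 169 at room temperature (0.04, SE 0.17, adjusted p = 0.907), and its groups overlapped. The adenosine receptor Adora1, which inhibits adenylyl cyclase, differed by -0.63 (SE 0.12, adjusted p = 0.00888) and Rgs2, an inhibitor of G protein signalling, by -1.28 (SE 0.24, adjusted p = 0.00783). The adenylyl cyclases, which make cAMP, went both ways. Adcy3 was at 107, 109, 109 and 127 FPKM in cold against 42.7, 77.3 and 56.5 (0.97, SE 0.17, adjusted p = 0.00597), the soluble cyclase Adcy10 rose by 1.64 (SE 0.20, adjusted p = 0.00120), and Adcy9 fell from 10.3, 11.4 and 8.63 to 4.49, 4.76, 5.11 and 4.91 FPKM (-0.93, SE 0.10, adjusted p = 0.000813).

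Of 24 listed regulators and effectors of thermogenesis, 22 were tested, 3 rose (13.6%) and 2 fell (9.09%), beside 8.31% and 5.04% of all genes, and the median difference was -0.15. Without room temperature replicate 3 the falls numbered 5. Dio2, the deiodinase that makes active thyroid hormone, was at 38.9, 38.5, 22 and 52.2 FPKM in cold and at 52.4, 47.9 and 55.1 at room temperature (-0.50, SE 0.23, adjusted p = 0.177). Ppargc1a, the coactivator of mitochondrial biogenesis, was at 10.8, 12, 8.18 and 14.3 against 5.86, 18 and 23.7 (-0.29, SE 0.37, adjusted p = 0.661), with both the lowest and the highest values at room temperature. Without room temperature replicate 1 its difference of -0.84 passed, and without room temperature replicate 3 that of Prdm16, -0.69. Cidea differed by -0.01 (SE 0.08, adjusted p = 0.944), Prdm16, a determinant of brown fat identity, by -0.33 (SE 0.24, adjusted p = 0.405) and Gk, glycerol kinase, by 0.17 (SE 0.29, adjusted p = 0.739). Beside Elovl3, Letmd1, a mitochondrial protein of brown fat, rose from 349, 346 and 373 to 562, 543, 573 and 574 FPKM (0.66, SE 0.07, adjusted p = 0.00059). Ppara, the nuclear receptor of fatty acid oxidation, fell from 59.5, 71.1 and 68.1 to 30.2, 36.1, 42.0 and 31.6 (-0.91, SE 0.12, adjusted p = 0.00171), and the adipocyte factor Cebpa differed by -0.72 (SE 0.15, adjusted p = 0.0144). Cox7a1, a subunit of cytochrome oxidase, differed by 0.51 (adjusted p = 0.0239), a call that ended without cold replicates 1, 3 and 4 or room temperature replicates 1 and 2 (up to 0.0913). The sum of 11 brown adipocyte markers other than Ucp1 ranged from 19526 to 21805 FPKM in cold and from 18137 to 20712 at room temperature.

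Of 22 tested genes of glucose uptake and glycolysis, 14 rose and 1 fell, against 8.31% higher and 5.04% lower among all genes, and the median difference was 0.52. Without single libraries 12 to 14 rose. The fall, in Pfkfb3, was not called without cold replicate 1 or room temperature replicates 2 or 3. Slc2a4, the insulin-regulated glucose transporter, lay at 342, 363, 356 and 344 FPKM in cold against 321, 295 and 325 (0.16, SE 0.07, adjusted p = 0.165). The trapping enzyme hexokinase rose in both forms, Hk2 by 0.66 (SE 0.13, adjusted p = 0.00898) and Hk1 by 0.84 (SE 0.15, adjusted p = 0.00726). Phosphofructokinase, the committed step, rose in both the liver form Pfkl, at 485, 435, 508 and 493 against 254, 236 and 236 FPKM (0.99, SE 0.08, adjusted p = 0.000186), and the platelet form Pfkp, at 109, 102, 102 and 124 against 54.5, 49.5 and 41.3 (1.16, SE 0.11, adjusted p = 0.00044).

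Other glycolytic enzymes also rose. Gpi1 differed by 1.09, Aldoa by 0.69, Tpi1 by 0.45, Pgk1 by 0.47, Pgam1 by 0.60, Eno1 by 0.67 and Pkm, pyruvate kinase, by 0.87 (SE 0.07 to 0.12, adjusted p from 0.000446 to 0.00611). Ldha, the lactate dehydrogenase subunit whose upstream sequence is shown above, was at 1732, 1490, 1704 and 1955 FPKM in cold and 1166, 1106 and 1137 at room temperature (0.59, SE 0.10, adjusted p = 0.00426). Over all 22 tested members of the list, the cold libraries lay wholly above the room temperature libraries in 15 and wholly below in 2, beside 14.7% and 11.5% of all genes tested, and the groups overlapped in 5. Many glycolytic genes have processed pseudogenes of near-identical sequence, with which their reads can be shared.

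Pyruvate can enter the mitochondria through the carrier pair Mpc1 and Mpc2. Mpc2 rose from 559, 534 and 514 to 871, 802, 815 and 877 FPKM (0.65, SE 0.07, adjusted p = 0.000813), while Mpc1 differed by 0.55 (SE 0.17, adjusted p = 0.0561) with overlapping groups and passed without room temperature replicate 1 (0.78). Pdk4, the kinase that shuts off pyruvate dehydrogenase, was at 947, 877, 836 and 910 against 868, 733 and 844 FPKM (0.13, SE 0.09, adjusted p = 0.342). Of 13 tested genes of pyruvate entry, 3 rose and 0 fell. The rises numbered 1 without cold replicate 1 or 2 or room temperature replicate 2. In the pentose phosphate pathway, which yields NADPH and ribose, 5 of 7 genes rose and 0 fell, but 2 without cold replicate 1, 2 or 4 or without room temperature replicate 2 or 3. Those that held throughout were Rpia, the ribose isomerase (1.22, SE 0.12, adjusted p = 0.000512), and Pgd, an NADPH-forming dehydrogenase (1.00, SE 0.20, adjusted p = 0.0117).

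**Figure D3:**
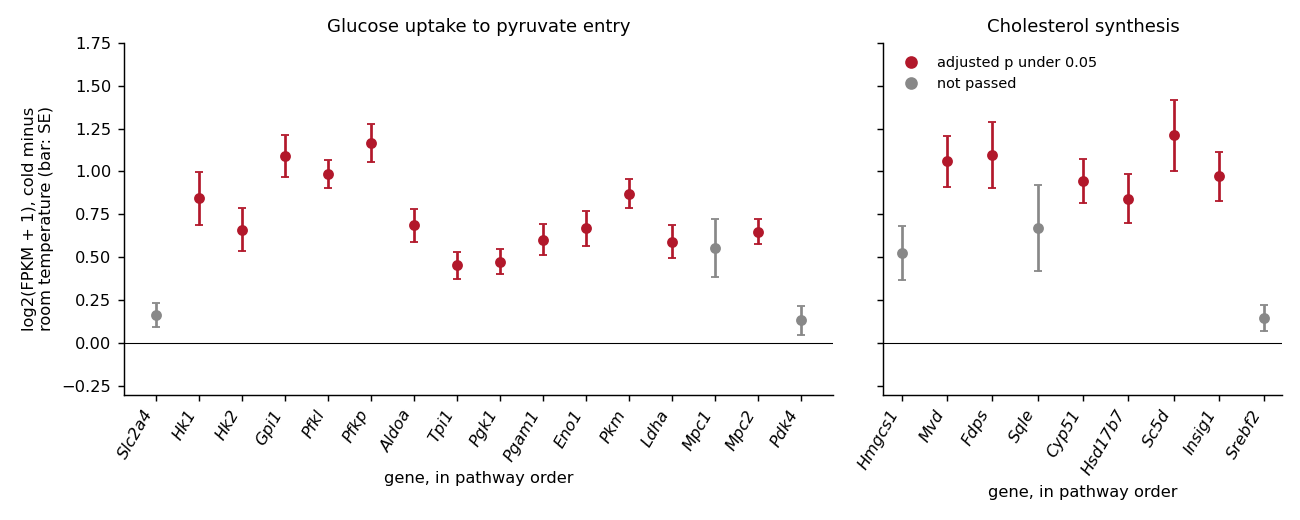
Difference in log2(FPKM + 1), cold minus room temperature, in BKO mice with its standard error for 16 genes from glucose uptake to pyruvate entry (left) and 9 genes of cholesterol synthesis and its regulation (right). Red points passed at an adjusted p under 0.05; Slc2a4, Pdk4 and Srebf2 lie closest to 0.

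Of 25 tested genes of sterol synthesis and uptake, 8 rose and 0 fell, and the median difference was 0.44. The 8 calls held without each library in turn, and 14 genes rose without room temperature replicate 1. Fdps, which makes farnesyl diphosphate, was at 76.7, 83.2, 74.1 and 86.8 FPKM in cold and at 54.1, 34.7 and 26.8 at room temperature (1.09, SE 0.19, adjusted p = 0.00611). Insig1, which holds the sterol sensor in the endoplasmic reticulum, was at 231, 304, 204 and 250 against 104, 140 and 132 FPKM (0.97, SE 0.14, adjusted p = 0.00303). The groups did not overlap in either gene. Of other synthesis steps, Mvd rose by 1.06, Cyp51 by 0.95, Hsd17b7 by 0.84 and Sc5d by 1.21 (SE 0.13 to 0.21, adjusted p from 0.00196 to 0.00566). Hmgcs1 differed by 0.53 (adjusted p = 0.0534), Sqle by 0.67 (adjusted p = 0.109) and the sterol-responsive factor Srebf2 by 0.15 (adjusted p = 0.230).

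In the making of new fatty acids, 3 of 13 tested genes rose and 0 fell, and 8 rose without room temperature replicate 1. Mlxipl, the glucose-sensing factor ChREBP, was at 217, 208, 196 and 195 FPKM in cold and 125, 119 and 124 at room temperature (0.73, SE 0.07, adjusted p = 0.000509). Mlycd, which breaks down malonyl-CoA, rose from 66.4, 65.2 and 72.7 to 115, 117, 136 and 115 (0.81, SE 0.09, adjusted p = 0.000674). Acly, the source of cytosolic acetyl-CoA, was at 1704, 1315, 1306 and 1714 against 1567, 930 and 685 FPKM (0.58, SE 0.24, adjusted p = 0.139), and its room temperature libraries spread widely, with replicate 1 inside the cold range; without that library the difference was 0.91 and passed. Elongases and desaturases gave 5 rises and 1 fall in 14 tested genes. The fall, in Fads1, was not called without cold replicates 1, 3 or 4 or room temperature replicates 1 or 2. Besides Elovl3, the rises included Elovl4, another elongase of very long fatty acids (0.94, SE 0.12, adjusted p = 0.00127). Elovl4 was at 1.63, 1.06, 1.33 and 1.21 FPKM in cold against 0.196, 0.251 and 0.158. It was tested only through the cold libraries, where it was high, and its levels lie near the floor. The others were the elongation cycle enzymes Hacd2 (0.64, SE 0.11, adjusted p = 0.00669) and Hsd17b12 (0.61, SE 0.11, adjusted p = 0.00814), and Elovl6, which extends palmitate. Elovl6 was at 445, 416, 356 and 585 against 313, 285 and 158 FPKM (0.87, SE 0.23, adjusted p = 0.0359), a call that ended without cold replicates 1, 2 or 4 or room temperature replicates 2 or 3 (up to 0.0810).

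Of 18 tested lipase and droplet genes 3 rose (16.7%) and 1 fell (5.56%), beside 8.31% and 5.04% of all genes, and 2 fell without room temperature replicate 1. The droplet coat protein Plin2 was at 1158, 969, 949 and 1204 FPKM in cold against 619, 461 and 445 (1.08, SE 0.13, adjusted p = 0.00127). The lipases Mgll, which takes the last fatty acid off glycerol (0.72, SE 0.08, adjusted p = 0.000891), and Lipa of the lysosome (0.83, SE 0.14, adjusted p = 0.00553) also rose, and the coat protein Plin4 fell (-0.62, SE 0.13, adjusted p = 0.0132). The cytosolic lipases that act first, Pnpla2 (-0.02, SE 0.08, adjusted p = 0.901) and Lipe (0.08, SE 0.09, adjusted p = 0.587), did not pass.

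In triglyceride synthesis and glyceroneogenesis 4 of 18 tested genes rose and 3 fell. The falls included both Dgat2, the final acyltransferase, from 1002, 1221 and 1182 to 600, 654, 582 and 591 FPKM (-0.90, SE 0.09, adjusted p = 0.0005), and Pck1, the key enzyme of glyceroneogenesis, from 1756, 1700 and 1959 to 855, 1010, 1270 and 989 (-0.82, SE 0.12, adjusted p = 0.00344). Agpat1, an earlier acyltransferase, rose by 0.50 (SE 0.08), and the phosphatidate phosphatases Lpin1 and Lpin2 by 0.55 (SE 0.11) and 0.64 (SE 0.12). In the uptake of fatty acids 5 of 23 tested genes rose and 3 fell. The rises numbered 3 without cold replicates 1, 2 or 4 or room temperature replicate 1, and 2 without room temperature replicate 2. Acsl5, which activates fatty acids, was at 538, 458, 460 and 636 against 241, 247 and 142 FPKM (1.34, SE 0.19, adjusted p = 0.00264), and Slc27a2, a transporter and activator of fatty acids, rose by 0.62 (SE 0.11, adjusted p = 0.00711). The lipoprotein receptors Vldlr (-0.58, SE 0.11, adjusted p = 0.00819) and Scarb1 (-0.65, SE 0.12, adjusted p = 0.0082) fell, and Lpl, lipoprotein lipase, differed by -0.08 (SE 0.13, adjusted p = 0.722).

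Of 23 tested genes of mitochondrial fatty acid oxidation 8 rose, 1 fell (Acad10, not called without cold replicate 1) and 14 did not pass, with a median difference of 0.16, and 7 to 9 rose without single libraries. With quantile normalization 6 rose and 3 fell. Import was represented by Slc25a20, the carnitine carrier, at 427, 429, 419 and 448 FPKM against 300, 322 and 323 (0.45, SE 0.07, adjusted p = 0.0038), and by Cpt2 (0.50, SE 0.08, adjusted p = 0.00534). Of the oxidation cycle, Acadvl rose by 0.36, Acad11 by 0.52, Hadha by 0.58 and Hadhb by 0.40, and Etfdh, which passes electrons to ubiquinone, by 0.41 (SE 0.07 to 0.08, adjusted p from 0.00131 to 0.0113). These shifts amount to 1.28-fold in Acadvl and 1.5-fold in Hadha. In peroxisomal oxidation 2 of 16 genes rose and 2 fell (12.5% each), beside 8.31% and 5.04% of all genes. The rises, in Scp2 (0.41, SE 0.08, adjusted p = 0.0100) and Hsd17b4 (0.47, SE 0.09, adjusted p = 0.0115), held without each library, and 4 genes rose without room temperature replicate 1. Abcd2, a peroxisomal importer of very long fatty acids, fell from 22.7, 11.5 and 10.8 to 5.36, 6.07, 3.28 and 5.78 FPKM (-1.33, SE 0.25, adjusted p = 0.00864); it was the only fall of the peroxisomal list in all leave-outs but those of cold replicate 3.

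**Figure D4:**
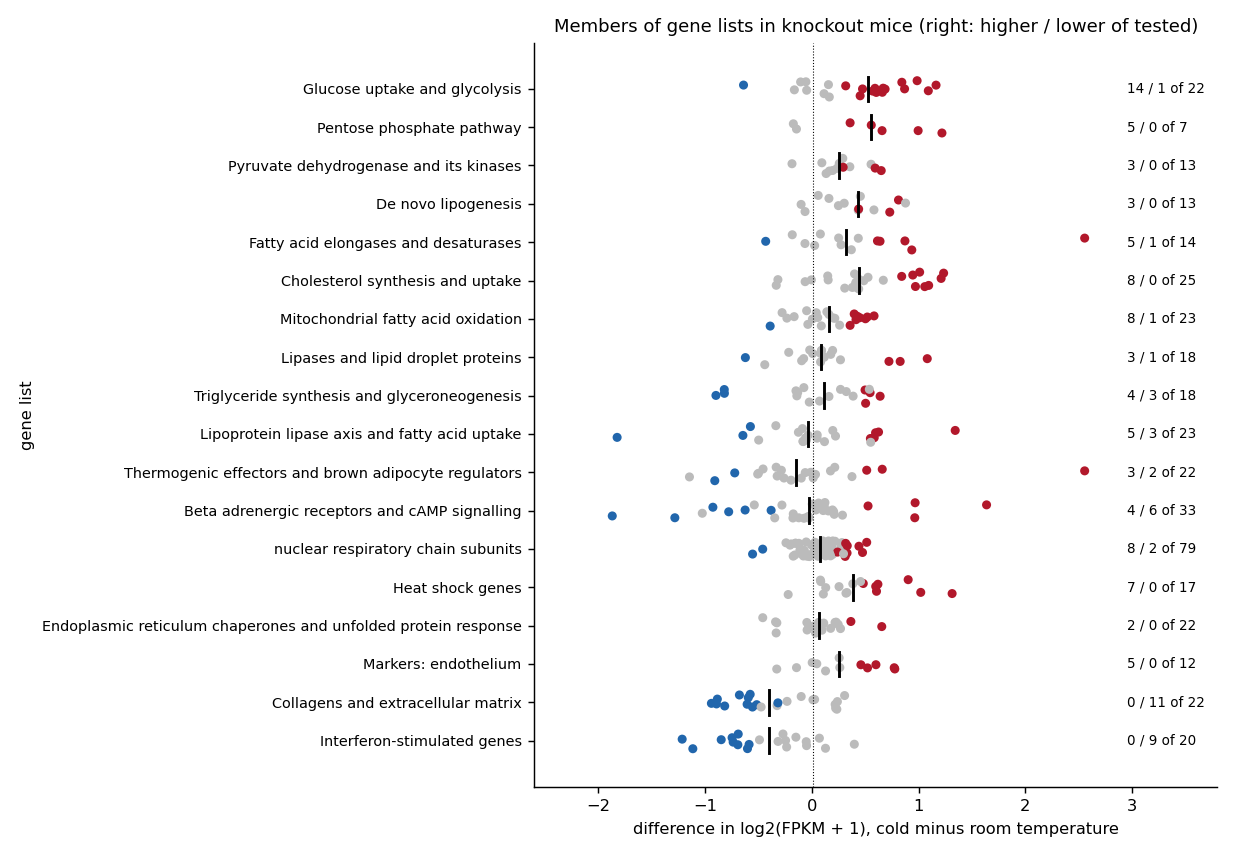
Differences in log2(FPKM + 1), cold minus room temperature in BKO mice, of the tested members of 18 gene lists, with red for genes that rose, blue for those that fell, grey for those that did not pass, a black bar for the list's median and a dotted line for the median of all genes (0.01). Glycolysis shows 14 rises among 22 genes, collagens and matrix 11 falls among 22 and interferon-stimulated genes 9 falls among 20.

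Of 79 tested nuclear genes of the chain and ATP synthase 8 rose (10.1%) and 2 fell (2.53%), beside 8.31% and 5.04% of all genes. The median difference was 0.07. The rises numbered 2 without cold replicate 1 or room temperature replicate 2, 3 without cold replicate 4, 4 without room temperature replicate 1 and 5 without cold replicate 2. With quantile normalization 4 of these genes rose and 6 fell, so the balance of rises and falls depended on the scaling. Atp5b, the catalytic subunit of ATP synthase, rose from 3411, 3349 and 3654 to 4741, 4675, 4624 and 4803 FPKM (0.44, SE 0.07, adjusted p = 0.00421), and Ndufb4 of complex I by 0.47 (SE 0.08, adjusted p = 0.00405). Of 76 mitochondrial ribosomal protein genes 11 rose (14.5%, beside 8.31% of all genes) and 0 fell. But 4 rose without cold replicate 1, 2 or 4, 6 without room temperature replicate 1 and 3 without room temperature replicate 2. Mrps2, Mrpl54 and Mrpl47 held throughout, with differences of 0.52, 0.56 and 0.50 (SE 0.08 to 0.09, adjusted p from 0.00344 to 0.00864).

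Among genes that break down branched-chain amino acids, 5 of 23 rose and 1 fell, with 3 rises without cold replicate 1 or room temperature replicates 1 or 2. The mitochondrial carrier of these amino acids, Slc25a44, was at 72.1, 81.0, 68.7 and 75.1 FPKM in cold against 50.2, 46.1 and 48.8 (0.61, SE 0.08, adjusted p = 0.00193). Pcca, a subunit of propionyl-CoA carboxylase, rose by 0.83 (SE 0.12, adjusted p = 0.00232) and Bckdhb of the branched-chain keto acid dehydrogenase by 0.43 (SE 0.07, adjusted p = 0.00577). Aldh6a1 of valine breakdown fell by 0.63 on the log2 scale (SE 0.12, adjusted p = 0.0101). Of 17 tested genes that break down other amino acids 3 rose and 3 fell, with no fall without cold replicates 1 or 4 or room temperature replicates 1 or 3 and 1 without cold replicate 3. Fah, the last enzyme of tyrosine breakdown, was at 96.7, 91.0, 91.1 and 101 against 42.9, 30.3 and 32.3 FPKM (1.42, SE 0.12, adjusted p = 0.000192). Gstz1, the step before it (-0.28, adjusted p = 0.230), Adhfe1, a hydroxyacid transhydrogenase (-0.18, adjusted p = 0.278), and Prodh, which starts proline breakdown (0.13, adjusted p = 0.527), did not pass.

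Aacs, which activates acetoacetate for lipid synthesis, rose from 188, 177 and 147 to 296, 273, 296 and 303 FPKM (0.78, SE 0.10, adjusted p = 0.00127). In the creatine cycle, described as a heat-producing route beside Ucp1, 2 of 6 tested genes rose and 0 fell, with a median difference of -0.08. Without room temperature replicate 1, 1 gene of this list fell. Ckb, creatine kinase B, was at 29.5, 33.7, 29.3 and 34.7 FPKM in cold and at 8.96, 14.2 and 14.1 at room temperature (1.31, SE 0.15, adjusted p = 0.00087). Alpl, the phosphatase placed in that cycle, was at 23.7, 22.6, 23.4 and 25.6 against 12.8, 9.08 and 7.31 (1.24, SE 0.15, adjusted p = 0.0012). Both calls held without each library in turn.

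Of 17 tested heat shock genes 7 rose and 0 fell, with a median of 0.38; the count was 4 without cold replicate 1 or 2 and 3 without room temperature replicate 2. Hsph1, a cytosolic chaperone, was at 55.5, 43.3, 36.2 and 50.4 FPKM in cold against 18.7, 11.7 and 25.7 (1.31, SE 0.23, adjusted p = 0.00609). Its partner genes Dnaja1 (0.90, SE 0.17, adjusted p = 0.00864) and Bag3 (0.48, SE 0.09, adjusted p = 0.0103) also rose. Of 22 chaperone genes of the endoplasmic reticulum 2 rose (9.09%, near the 8.31% of all genes) and 0 fell. In this list 1 rose without cold replicates 1, 2 or 4 or any single room temperature library. The rise that held was that of Manf, a secreted chaperone (0.66, SE 0.12, adjusted p = 0.00636), while the master chaperone Hspa5 was at 114, 120, 89.4 and 111 against 95.9, 109 and 106 FPKM (0.06, SE 0.11, adjusted p = 0.744). In the integrated stress response and serine synthesis 4 of 13 tested genes rose and 3 fell, with 2 rises without cold replicate 1 or room temperature replicate 2. Atf5, a transcription factor of that response, rose from 99.6, 84.1 and 107 to 208, 219, 213 and 195 FPKM (1.11, SE 0.09, adjusted p = 0.00025), and Slc3a2, an amino acid transporter chain, by 0.82 (SE 0.10, adjusted p = 0.000999). Phgdh, the first enzyme of serine synthesis, fell from 1.81, 1.63 and 3.09 to 0.562, 0.337, 0.623 and 0.497 (-1.05, SE 0.16, adjusted p = 0.00335), and Nupr1, a stress-induced chromatin protein, by 0.67 on the log2 scale (SE 0.14, adjusted p = 0.0155). Phgdh was tested only through the room temperature libraries, where it was high, and its levels lie near the floor.

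Of 23 tested genes of secreted factors 6 rose and 5 fell. Fgf21, a hormone released by activated brown fat and liver, was at 2.56, 1.58, 0.800 and 1.78 FPKM in cold and at 0.131, 0.179 and 0.258 at room temperature, an 8.88-fold higher mean (1.13, SE 0.20, adjusted p = 0.00623). Bmp8b, a bone morphogenetic protein that acts in thermogenesis, was at 4.77, 1.65, 3.14 and 4.31 against 0.659, 0.0372 and 0.0162 (1.83, SE 0.27, adjusted p = 0.0031). In both genes the room temperature values were under 1 FPKM, where FPKM are least precise, so both were tested only through their cold libraries. Apln, a peptide that acts on blood vessels, rose by 0.94 (SE 0.17, adjusted p = 0.00633) and Rbp4, the retinol carrier, by 0.65 (SE 0.12, adjusted p = 0.00864). Adipoq, adiponectin, fell from 741, 697 and 804 to 534, 608, 501 and 552 FPKM (-0.45, SE 0.09, adjusted p = 0.0111) and the cytokine Il15 from 4.98, 4.90 and 4.13 to 2.16, 2.76, 3.08 and 2.09 (-0.69, SE 0.13, adjusted p = 0.00714).

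In the circadian clock 4 of 18 genes rose and 0 fell. The rises numbered 2 without cold replicates 1 or 2 or room temperature replicates 2 or 3, and without room temperature replicate 1 another 3 genes fell, without cold replicate 3 another 1. Bhlhe40, a repressor in the clock, was at 44.5, 57.0, 53.5 and 75.4 FPKM against 20.8, 22.9 and 28.7 (1.21, SE 0.17, adjusted p = 0.00226), and Arntl, its core activator, at 10.4, 10.3, 5.97 and 8.27 against 4.87, 4.05 and 3.87 (0.86, SE 0.17, adjusted p = 0.0101). Of 14 tested glucocorticoid-responsive genes 0 rose and 3 fell, and 5 fell without room temperature replicate 1. Hsd11b1, which regenerates active glucocorticoid, fell from 103, 78.5 and 77.9 to 55.2, 56.0, 52.0 and 53.6 FPKM (-0.65, SE 0.11, adjusted p = 0.00451) and the siderophore-binding protein Lcn2 from 1.43, 1.03 and 2.05 to 0.246, 0.516, 0.312 and 0.414 (-0.85, SE 0.15, adjusted p = 0.00622). Lcn2 was tested only through the room temperature libraries, where it was high, and its levels lie near the floor. Ccnd1, the cyclin of the early cell cycle, rose from 2.25, 1.97 and 1.83 to 6.12, 3.78, 7.61 and 11.3 (1.37, SE 0.26, adjusted p = 0.00864). It was the 1 of 9 tested cell cycle genes that rose (11.1%, beside 8.31% of all genes).

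Of 20 tested interferon-stimulated genes 0 rose and 9 fell, with a median of -0.40, and 8 or 9 fell without single libraries, with 1 rise without cold replicate 3. The immunoproteasome subunits Psmb8, at 5.68, 8.01, 6.63 and 7.83 against 16.3, 19.5 and 16.9 FPKM (-1.21, SE 0.12, adjusted p = 0.000509), and Psmb9, at 3.72, 4.31, 4.16 and 5.15 against 9.90, 12.1 and 9.69 (-1.12, SE 0.12, adjusted p = 0.00059), fell the most. The class I chains H2-D1 and H2-K1, members of a family with shared sequence, differed by -0.74 (SE 0.08) and -0.69 (SE 0.09), and their partner B2m fell from 489, 556 and 409 to 245, 277, 221 and 336 FPKM (-0.85, SE 0.15, adjusted p = 0.00627). Gbp2, an interferon-induced GTPase, differed by -0.75 (SE 0.14) and Bst2 by -0.59 (SE 0.12). In the constitutive proteasome Psmc4 rose by 0.52 (SE 0.08, adjusted p = 0.00294). Of 37 proteasome genes 1 rose (2.7%) and 3 fell (8.11%), all 3 of them inducible subunits, beside 8.31% and 5.04% of all genes. Macrophage markers were lower in sum, at 76.3 to 110 FPKM in cold against 111 to 153 at room temperature, and 2 of 10 fell, among them Cd14 (-0.98, SE 0.13, adjusted p = 0.00159). The falls numbered 3 without cold replicate 4 and 1 without cold replicates 1 or 2 or room temperature replicates 1 or 3. Of the lymphocyte markers 3 could be tested, and their summed level was 15.4 to 23.1 FPKM in cold against 9.83 to 20.3. The part of these cells in the falls was not tested.

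Of 22 tested genes of collagens and matrix 0 rose and 11 fell, with a median of -0.40, but the count depended on single libraries. It was 4 without cold replicate 1, 5 without cold replicates 2 or 4, 6 without cold replicate 3 or room temperature replicates 1 or 3, and 9 without room temperature replicate 2, and 2 others rose without room temperature replicate 3. Col3a1, a fibrillar collagen, was at 14.8, 18.5, 18.8 and 17 FPKM in cold against 48.0, 26.4 and 30.7 (-0.94, SE 0.18, adjusted p = 0.0089). The matrix protease Mmp2 (-0.89, SE 0.14, adjusted p = 0.00343) and Col6a3 (-0.68, SE 0.14, adjusted p = 0.015) held throughout. Summed fibroblast markers were at 151 to 162 FPKM in cold and 168 to 204 at room temperature, and 1 of the 7 tested passed; their part in the matrix genes was not tested. Gpx3, a secreted peroxidase, fell from 1002, 1256 and 1305 to 683, 825, 677 and 618 FPKM (-0.76, SE 0.12, adjusted p = 0.00421), and Blvrb of heme breakdown by 0.68 on the log2 scale (SE 0.11, adjusted p = 0.00501). Rpsa, a protein of the small ribosomal subunit, fell from 57.0, 58.5 and 70.6 to 43.8, 41.0, 43.8 and 40.5 (-0.54, SE 0.09, adjusted p = 0.00587). Of 74 tested genes of cytosolic ribosomal proteins 1 rose (1.35%) and 6 fell (8.11%), with a median of -0.27. The falls numbered 1 to 13 without single libraries and 29 with quantile normalization, so their count depended on the scaling.

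Of 12 endothelial markers tested 5 rose and 0 fell, and 4 or 5 rose without single libraries, with 1 fall without room temperature replicate 2. Their summed level was 408 to 434 FPKM in cold and 334 to 370 at room temperature, without overlap. Eng, a co-receptor of TGF-beta on blood vessels, was at 55.7, 52.7, 60.9 and 50.8 FPKM against 31.5, 30.9 and 32.5 (0.78, SE 0.08, adjusted p = 0.000674). Emcn, an endothelial sialomucin, rose by 0.77 (SE 0.12), Kdr, the main VEGF receptor, by 0.60 (SE 0.10) and Pecam1 by 0.52 (SE 0.08). Summed erythroid markers were at 415 to 702 FPKM in cold and 174 to 473 at room temperature, and 3 of 6 tested passed (5 without room temperature replicate 1, and 0 without room temperature replicates 2 or 3). Their part in the vascular genes was not tested.

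Whether the response depended on Klf15 was asked by setting it against that of FF mice in 1 model over all 26 libraries. FF mice had 1686 rises (13.3% of 12702 genes) and 1307 falls (10.3%) in cold, although their libraries come from an earlier and a later series, whereas those of BKO mice are all from the later one. In that model 1601 genes were called in both genotypes with the same sign and 0 with opposite signs, which is 77.6% of the 2062 BKO calls (16.2% of genes) and 53.5% of the 2993 FF calls (23.6%). Signs matched in 80.8% of all genes tested. Of the genes ranked above by the BKO libraries, all 20 rises and 17 of the 20 falls also passed in FF mice in the same direction. Among the falls that did not, Gm22442 stood at 0.63 (adjusted p = 0.643) and Gm16053 at -0.19 (adjusted p = 0.855) in FF mice.

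The difference of the responses, BKO minus FF, passed in 1 of 12702 genes (0.00787%), Gm22767, with 432 genes at an unadjusted p under 0.05. Within the cold and fed room temperature groups, Gm22767 was listed at 0 in all BKO libraries and all FF cold libraries. It stood at 2.07, 2.01 and 1.93 FPKM in the 3 FF libraries at room temperature (difference 1.58, adjusted p = 4.48e-09). Among these groups it thus reached 1 FPKM only in the group where it was high, near the floor. With all BKO values at 0, no dependence of the response on genotype is read from this call. The next gene, named after its values were seen, was Anxa8, an annexin, with falls of 1.22 in BKO and 2.13 in FF mice on the log2 scale (adjusted p = 0.0699 for the difference, and 0.0273 with the library series as a covariate). For some of the genes discussed above, and not for all, the values were as follows. C4b differed by -1.59 in BKO and -1.10 in FF mice (difference -0.49, unadjusted p = 0.00168), and the difference did not pass. Dio2 differed by -0.50 in BKO and 0.84 in FF mice (difference -1.34, unadjusted p = 0.0191, adjusted p = 1). Apln differed by 0.94 in BKO and 1.85 in FF mice (difference -0.91, adjusted p = 0.686). Ppara differed by -0.91 and -0.10 (difference -0.81, unadjusted p = 0.0227, adjusted p = 1). A difference of responses with an adjusted p above the threshold does not show that the genotypes respond alike, and with 3 or 4 libraries per group its standard error was 0.53 for Dio2 on the log2 scale.

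**Figure D5:**
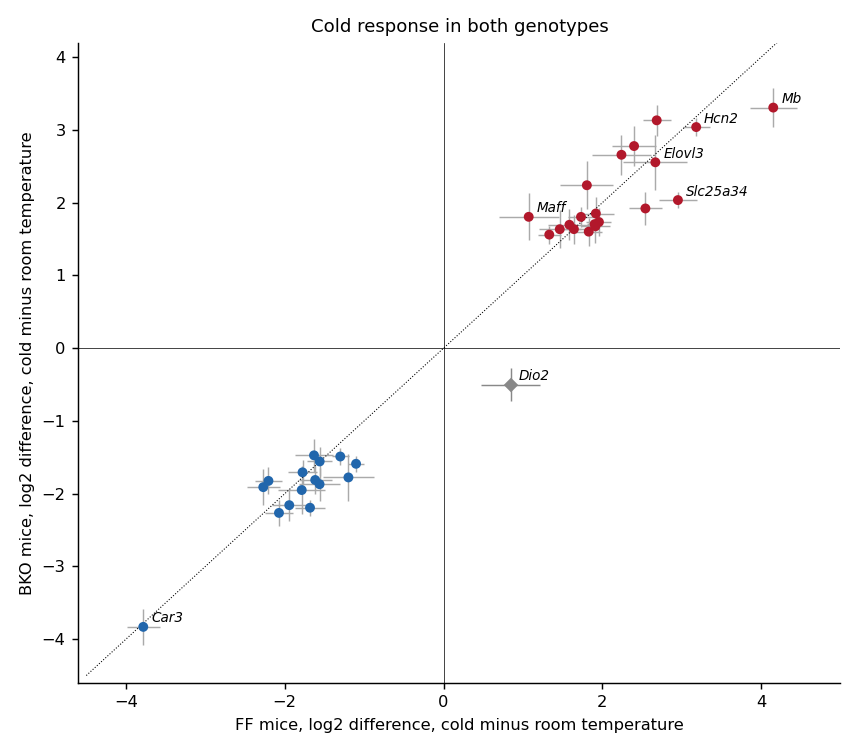
Cold minus room temperature difference in log2(FPKM + 1) in BKO mice (vertical axis) against the same in FF mice (horizontal axis), with standard errors, for the 20 largest rises (red) and 15 of the 20 largest falls (blue) ranked by the BKO libraries, and for Dio2 (grey diamond). The dotted line marks equal responses; the ranked genes drawn lie in the quadrants of equal sign, and Gm15079, n-R5-8s1, Gm22442 and Gm16053, short or pseudogene transcripts, are among the falls not drawn.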

How the data were processed

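RNA-seq of mouse brown adipose tissue was analysed from 1 deposited table of FPKM for 48432 genes in 26 libraries. The authors made the deposited FPKM from their reads; STAR, Cufflinks, Cuffdiff and the build mm10 are named, per the submitters' processing notes, and versions and read depth are not given in the sources used here. FPKM hold no counts, so no count model was used, and precision at low levels is unknown.

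Genes reaching 1 FPKM in 3 or more of the 7 knockout libraries were tested on log2(FPKM + 1) with limma 3.58.1 in R 4.3.3 (trend, Benjamini-Hochberg adjustment, threshold 0.05). The difference of the responses between genotypes was a contrast of an 8-group model over 26 libraries. Zeros were set to missing in 33 genes whose smallest other value was at least 100 FPKM. The ranked genes were the 20 rises and 20 falls with the largest difference among called genes without overlap and with at least 5 FPKM in the higher group; others come from the gene lists. Members and lists were chosen with earlier results of these data known. Of the gene IDs, 48051 matched GENCODE M21, and upstream sequences are from RefSeq. The tests were checked on simulated data. Alternatives covered the pseudocount, filters, normalization, weights, the zero rule and each library left out. Some genes of the lists are not reported here.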

Additional observations from a re-analysis of the deposited data

Results flagged for a closer look

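In 9 genes 1 of the 4 cold knockout libraries stood far from the other 3, by Dixon's criterion, which chance meets in about 1 of 20 groups; 176 genes were examined. Replicate 4 was high in Adcy3 (127 FPKM, others 107 to 109) and Elovl3 (830, others 590 to 595) and low in Mrpl54 (94.9, others 105 to 107). Replicate 3 was high in Adrb3 (201, others 141 to 150), Mlycd (136, others 115 to 117) and the pseudogene Gm16053 (3.66, others listed at 0), and low in Prodh (6.85, others 9.33 to 9.39). Replicate 1 was high in Bag3 (30.1, others 26.9 to 27.4) and replicate 2 low in Hcn2 (10.6, others 14.2 to 14.4). Gm22767 passed for the difference of the cold responses, with 1.58 on the log2 scale (limma, adjusted p = 4.48e-09). It is a short transcript listed at 0 in all libraries of the 4 groups other than the 3 of FF mice at room temperature. Those stood at 1.93 to 2.07 FPKM, near the floor, so no genotype difference is read from it.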

How the results depend on the processing

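The count of genes that differed, 1581, was 999 with no filter on low values (624 higher, 375 lower) and 2627 with array weights (1630 higher, 997 lower), and 391 genes were lower with a mean of at least 5 FPKM. Without single libraries it ran from 842 (cold replicate 1) to 1671 (cold replicate 3), with 530 to 1159 higher and 312 to 512 lower. The count of genes that passed for the difference of the responses, 1, became 2 with the library series as a covariate or quantile normalization. It was 0 with a pseudocount of 0.1 or a mean of at least 5 FPKM and 115 with array weights. Without single libraries it was 1 to 4 (4 without knockout room temperature replicate 1, 3 without FF room temperature replicate 3). The causes were not tested.

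Genes that did not pass also changed sign. Without replicate 3 of both groups, an alternative chosen after seeing the data, the differences were 0.2179 for Ppargc1a, 0.0331 for Cidea, -0.0093 for Adrb3 and 0.0099 for Pnpla2. Quantile normalization gave -0.0561 for Adrb3 and -0.042 for Hspa5, and array weights -0.0207 for Gk and 0.018 for Pnpla2. Without single libraries the ranges were -0.838 to 0.0851 for Ppargc1a, -0.0437 to 0.0396 for Cidea, -0.1619 to 0.166 for Adrb3, -0.2742 to 0.4244 for Gk, -0.1602 to 0.0099 for Lpl, -0.0697 to 0.0328 for Pnpla2 and -0.0023 to 0.1621 for Lipe. Of the called genes 62.2% were higher, and 53.4% with quantile normalization. No paired analysis was possible because the labels give the libraries of each group their own animal numbers and no shared replicate number.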
